A study of Mus musculus with 4 samples.

Results

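Of the 10 Myc and Max network genes examined, 4 carried an E2F1 peak at a transcript start, and these genes held 5 of the 4523 E2F1 peaks in the table. They were Mycl1, Mxd3 and Mnt with 1 peak each and Mxi1 with 2. Myc, Mycn, Max, Mxd4, Mlx and Mga had no peak there. A peak was assigned to a gene when it overlapped the window from 1000 bp upstream to 500 bp downstream of any transcript start in the GENCODE M1 annotation of mm9. This assignment used position alone. The peaks were called from these same samples, and the genes were listed with earlier results of these data known. All 5 peaks were weaker per kb than the median peak, and 0 of 5 were called different between serum and 2i ESCs, beside 10.3% of all peaks, a share at which 0 of 5 sets the network genes apart in no way.

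The data are E2F1 ChIP-seq from mouse embryonic stem cells (ESCs), with 2 biological replicates from cells in serum medium with LIF and 2 from cells in 2i, a serum-free medium with LIF, the MEK inhibitor PD0325901 and the GSK3 inhibitor CHIR99021. The labels name no genetic change in either culture, and the ESC line behind these 4 samples is not given in the sources used here. ChIP-seq sequences the DNA that an antibody, here against E2F1, pulls down from fixed chromatin. The table holds no expression values, so cell type markers were not checked.

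MYC proteins are transcription factors that bind DNA as dimers with MAX, most often at the E-box, and activate genes of growth, ribosome production and metabolism. The MXD proteins (MXD3, MXD4 and MXI1, also called MXD2) and MNT compete for MAX and repress through SIN3 corepressors, MLX pairs with MNT, some MXD proteins and the glucose-sensing MondoA and ChREBP, and MGA joins MAX in the variant Polycomb complex PRC1.6 together with E2F6. E2F1 acts at the entry into S-phase under the control of the RB family, and Myc and Mycn are textbook E2F-regulated genes.

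The genome sequence at these starts is shown first, because it locates the letters that E2F and MYC proteins are known to bind. An E2F site was searched as any of the octamers TTTCCCGC, TTTGGCGC, TTTCGCGC and TTTGCCGC, and an E-box as CACGTG, reading both strands up to 200 bp from each peak centre. The shorter E2F core GCGGGAA, which overlaps the first of these octamers, was added after the data were seen. An E2F octamer was found in 5.10% of the 4509 peaks on assembled chromosomes, an E-box in 9.94% and the core in 14.6%. A match describes letters only and is not evidence of binding there.

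Of the network peaks, the one at Mxd3 alone held an E2F octamer. It lay on chromosome 13 from 55431190 to 55431584, wholly upstream of the 3 annotated Mxd3 starts, and ended 71 bp before the first of them. The octamer was centred 363 bp upstream of that start, the E-box 253 bp and another E2F core 106 bp. The part of the peak nearest to the gene is printed below from NCBIM37 (mm9), 5′ to 3′ on the strand of the gene, which is the minus strand, with octamer, E-box and core in capitals.

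Mxd3, chr13:55431190-55431489: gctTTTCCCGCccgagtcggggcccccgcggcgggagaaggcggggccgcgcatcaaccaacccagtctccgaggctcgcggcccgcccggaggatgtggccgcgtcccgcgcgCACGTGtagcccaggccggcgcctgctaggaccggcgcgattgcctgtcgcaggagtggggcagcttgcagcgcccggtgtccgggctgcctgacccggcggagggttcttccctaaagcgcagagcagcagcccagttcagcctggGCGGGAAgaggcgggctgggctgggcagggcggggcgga

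The Mnt peak, on chromosome 11 from 74644189 to 74644633, was centred 11 bp upstream of the start of the first annotated transcript. It held an E-box 117 bp before that start and neither the E2F octamer nor the core. Its part upstream of the start is given on the plus strand with the E-box in capitals, as the only other network peak with 1 of the sites searched.

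Mnt, chr11:74644189-74644421: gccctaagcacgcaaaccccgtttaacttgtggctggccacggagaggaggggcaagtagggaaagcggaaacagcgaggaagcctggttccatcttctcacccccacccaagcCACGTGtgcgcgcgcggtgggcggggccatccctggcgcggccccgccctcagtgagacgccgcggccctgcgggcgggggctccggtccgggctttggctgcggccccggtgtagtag

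The peaks at Mycl1 and at both Mxi1 promoters held none of these letters. They are represented by the stretches of the Mycl1 peak and of the peak at the second Mxi1 promoter that lie outside annotated exons, on the plus strand and with no capitals.

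Mycl1, chr4:122673101-122673186: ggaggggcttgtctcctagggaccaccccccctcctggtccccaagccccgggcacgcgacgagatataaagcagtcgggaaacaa

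Mxi1, chr19:53403826-53403902: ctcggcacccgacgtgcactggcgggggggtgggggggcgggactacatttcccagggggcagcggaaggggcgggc

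Position differed between the peaks. The Mycl1 peak (chromosome 4, 122673101 to 122673552) was centred 16 bp upstream of a coding transcript start and overlapped the windows of 3 of the 5 annotated starts of the gene. At Mxi1, the peak at the first promoter (chromosome 19, 53385058 to 53385327) lay from 62 to 331 bp downstream of the start, with its centre in coding sequence. The peak at the second promoter (53403826 to 53404235) ran from 77 bp upstream to 332 bp downstream of its start, with its centre in untranslated exon sequence. None of the 5 peaks overlapped the start window of another gene, and all 5, at 269 to 451 bp, were shorter than the median peak of 480 bp. The share of G and C was 63.8% at Mnt, where only 4.66% of the peaks were lower, and 80.0% at the first Mxi1 promoter, higher than at 93.6% of them.

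**Figure D1:**
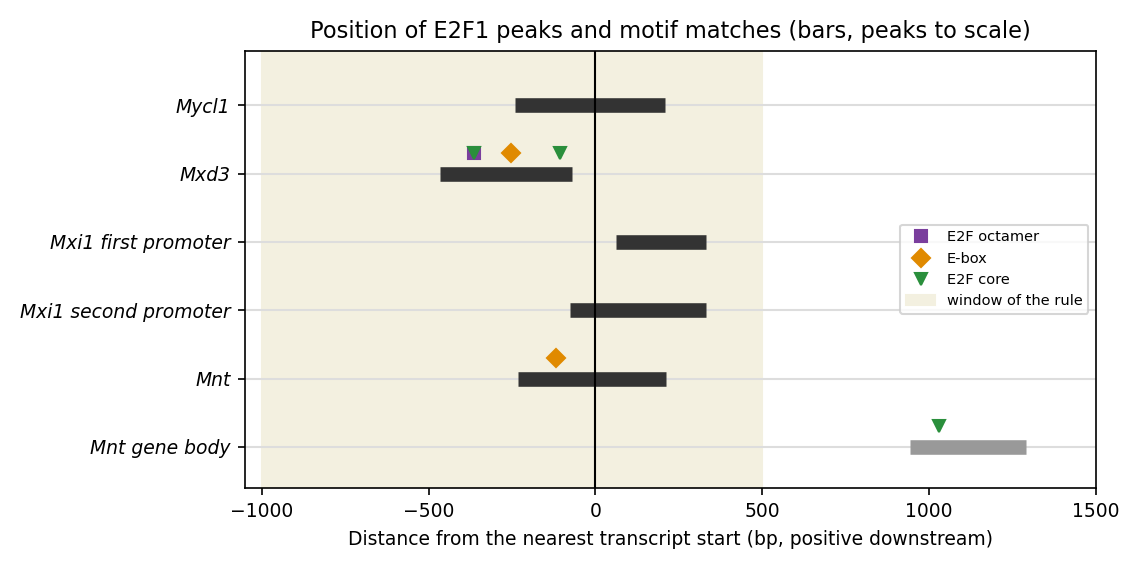
Position of the E2F1 peaks at Mycl1, Mxd3, Mxi1 and Mnt relative to the nearest transcript start, in bp along the gene. Bars are peaks, the shaded area is the window of 1000 bp upstream to 500 bp downstream, symbols mark motif matches within 200 bp of the peak centre, and the grey bar is the peak in the Mnt gene body, which lies from 943 to 1291 bp downstream of a start.

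Each value below is a normalized count, that is the reads over a peak divided by the size factor of its sample. The samples held 248878 to 710519 reads in peaks, with the fewest in serum replicate 1, and single values at the 5 peaks rested on 8 to 94 reads, where reads are inferred from the steps between the deposited values. Each peak was compared between serum and 2i with limma on log2(normalized count + 1), fitted over all 4523 peaks. Calls needed both an absolute log2 fold change above 1 and an unadjusted p below 0.05, and adjusted p-values are from the Benjamini-Hochberg method over all peaks. With 2 samples per condition, an exact two-sided permutation test of a single peak cannot give a p below 0.333, so each test leans on the spread that limma shares between peaks, and weak peaks have fold changes pulled toward 0 by the added 1.

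Of the 5 network peaks, 0 were called by limma and 0 had an unadjusted p under 0.05. Over all peaks, 10.3% were called, 17.8% had an unadjusted p under 0.05, and 1.46% were called with the adjusted p in place of the unadjusted p. These 66 adjusted calls by limma became 0 without serum replicate 1 (422 unadjusted), 33 without serum replicate 2, 17 without 2i replicate 1 and 11 without 2i replicate 2, and rose to 271 with the replicate block, 81 with a pseudocount of 8, 77 after rescaling to the same total and 73 after cyclic loess. The direction of the 466 calls depended on the scaling, the minimum signal and the samples, with 218 higher in serum here, 121 of 188 at a minimum mean of 50, 237 of 378 without 2i replicate 1, 238 of 413 without 2i replicate 2, 178 of 491 after rescaling to the same total and 232 of 398 after cyclic loess normalization. The log2 fold changes of the 5 peaks ran from -0.51 to 0.55 with a median of -0.0058, beside a median of -0.031 over all peaks. The replicates did not overlap between serum and 2i at 2 of the 5 peaks, Mycl1 and the first Mxi1 promoter, beside 49.3% of all peaks.

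Among the MYC family genes, Mycl1 (ENSMUSG00000028654.7), which encodes L-MYC, was the only one with a peak. Its normalized count was 40.1 and 41.9 in serum replicates 1 and 2, and 34.7 and 21.9 in 2i replicates 1 and 2. Both serum samples lay above both 2i samples, and the 2i samples stood further apart, by 1.58-fold against 1.05-fold in serum. The means were 41.0 ± 1.32 in serum and 28.3 ± 9.05 in 2i (SD over n = 2 each). The log2 fold change was 0.55 (standard error 0.41, 95% interval -0.35 to 1.46, limma unadjusted p = 0.205, adjusted p = 0.519), so the difference did not exceed the spread between replicates by this test. It had the same sign under each of the 10 alternative settings, from 0.23 without 2i replicate 2 to 0.88 without 2i replicate 1. With both serum samples above both 2i samples, leaving out a sample, changing the pseudocount or adding the replicate block could not turn the sign. Only the rescalings could have done so. The log2 fold change was 0.47 after rescaling to the same total, 0.56 by the median of ratios and 0.61 after cyclic loess.

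No peak was found at Myc (ENSMUSG00000022346.8, chromosome 15, 5 starts between 61816946 and 61818977) or Mycn (ENSMUSG00000037169.8, chromosome 12, 3 starts between 12947422 and 12948720). The nearest peak in the table was 2010218 bp from Myc, at the start of Fam49b, and 1674029 bp from Mycn, at Gen1 and Smc6. Of 22367 protein-coding genes, 3.04% lay farther from a peak than Myc and 4.39% farther than Mycn, and the median distance was 94086 bp. Of the same genes, 19.0% had a peak at a start, beside 4 of the 10 genes here. Because the table lists only regions called as peaks in both replicates of a condition, no signal can be given for these genes, and a missing peak does not measure the absence of E2F1.

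The start windows of Myc and Mycn nonetheless contained E2F octamers, as did 8.13% of 69965 distinct starts of protein-coding genes over the same 1000 bp upstream to 500 bp downstream. At Myc the octamer was centred 81 bp upstream of the start at 61817119 and fell in the windows of 3 of its 5 starts. At Mycn there were 3 octamers, 86, 97 and 101 bp upstream of the start at 12948720, of which the farther pair overlapped. They are written on the strand of each gene, plus for Myc and minus for Mycn, with the octamer in capitals, since these are genes with the E2F letters but without a peak.

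Myc, chr15:61817024-61817053: gccgacgcttgGCGGGAAAaagaagggagg
Mycn, chr12:12948792-12948821: gcgcgaaaggcTTTGGCGCctcccctgatt
Mycn, chr12:12948803-12948832: aatggcttttgGCGCGAAAggctttggcgc
Mycn, chr12:12948807-12948836: agcaaatggctTTTGGCGCgaaaggctttg

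Max (ENSMUSG00000059436.5), the shared dimer partner, had no peak at its 2 starts on chromosome 12 and no E2F octamer there. The peak nearest to Max was 139300 bp away, at Rab15. Both Max start windows held an E-box, as did those of both Mxd4 starts and of 4 of 5 Mlx starts. Among genes with a peak, so did the windows of all 3 Mxd3 starts, 2 of 3 Mxi1 starts and 1 of 3 Mnt starts. No start window of Myc, Mycn, Mycl1 or Mga held an E-box. The share over all starts of protein-coding genes was 23.1%.

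Among the MXD genes, whose proteins oppose MYC, Mxd3 and Mxi1 had peaks and Mxd4 (ENSMUSG00000037235.7, chromosome 5) had none within 100353 bp. At Mxd3 (ENSMUSG00000021485.7), which is known as the family member expressed in S-phase, the normalized count was 24.4 and 41.9 in serum and 48.7 and 33.4 in 2i. The groups overlapped, and the lowest value, in serum replicate 1, rested on 14 reads. The means were 33.2 ± 12.4 in serum and 41.0 ± 10.8 in 2i (SD over n = 2 each). The log2 fold change was -0.32 (standard error 0.43, 95% interval -1.26 to 0.61, limma adjusted p = 0.748), and without serum replicate 1 it was 0.055. The peak with the E2F octamer thus did not differ beyond the replicate spread.

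Mxi1 (ENSMUSG00000025025.7) had a peak at each of its 2 promoters. At the first promoter the normalized count was 13.9 and 15.3 in serum and 19.6 and 22.9 in 2i. Both 2i samples lay above both serum samples, on 8 and 16 reads in serum and 35 and 22 reads in 2i. The means were 14.6 ± 0.928 in serum and 21.3 ± 2.37 in 2i (SD over n = 2 each). The log2 fold change was -0.51 (standard error 0.49, 95% interval -1.59 to 0.57, limma adjusted p = 0.638), and it was 0.018 after cyclic loess normalization.

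At the second Mxi1 promoter the normalized count was 45.3 and 59.1 in serum and 49.8 and 48.0 in 2i. The 2i samples fell between the serum samples. The means were 52.2 ± 9.76 in serum and 48.9 ± 1.30 in 2i (SD over n = 2 each), with a log2 fold change of 0.080 (standard error 0.34, 95% interval -0.67 to 0.83, limma adjusted p = 0.929). Its sign turned after rescaling to the same total, at -0.0086, and without serum replicate 2, at -0.108. Whether the promoters of Mxi1 differed from each other in their change was not tested.

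Mnt (ENSMUSG00000000282.6) encodes a MAX partner that is present in dividing and resting cells alike. At its start the normalized count was 48.8 and 39.1 in serum and 52.6 and 36.5 in 2i. The serum samples fell within the range of the 2i samples, and the means were 43.9 ± 6.86 in serum and 44.6 ± 11.4 in 2i (SD over n = 2 each). The log2 fold change was -0.0058 (standard error 0.37, 95% interval -0.83 to 0.81, limma adjusted p = 0.994). The intervals at Mnt and at the second Mxi1 promoter stayed within a log2 fold change of 1 either way, while those at Mycl1, Mxd3 and the first Mxi1 promoter reached past 1 in the direction of the estimate.

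**Figure D2:**
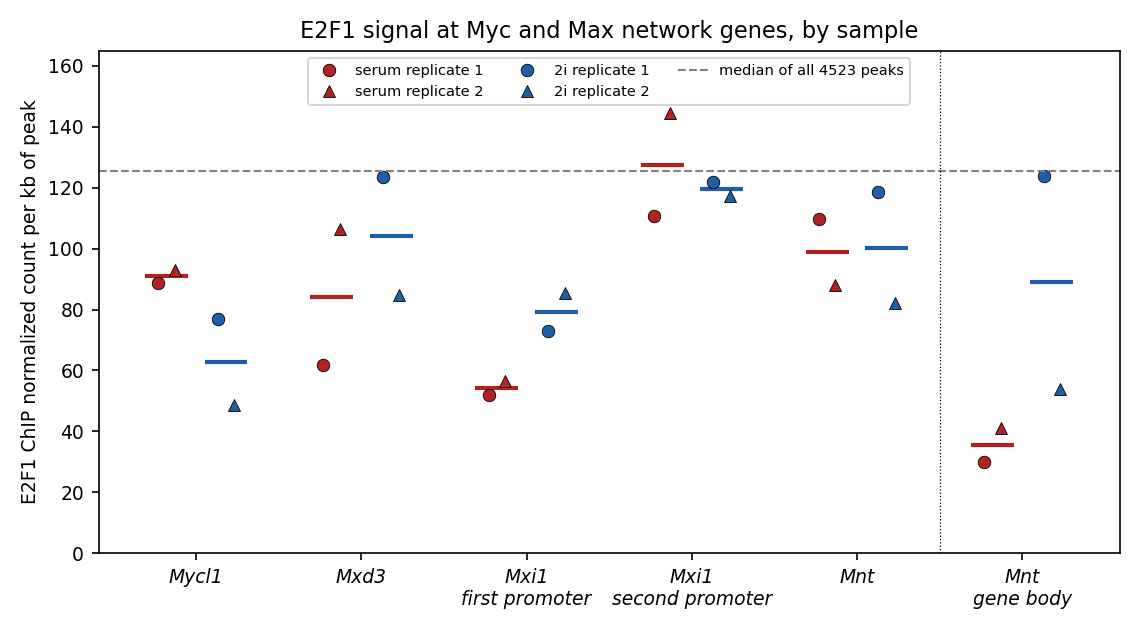
E2F1 ChIP signal in each sample, as normalized count per kb of peak, at the 5 network peaks and, right of the dotted line, at the peak in the Mnt gene body. Points are samples, short lines the means of 2 replicates, and the dashed line the median over all peaks of the mean over samples, 126 per kb, which is passed by the serum replicate 2 sample and the serum mean of the second Mxi1 promoter and by no other sample or mean shown.

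Another peak lay inside Mnt but outside the window, on chromosome 11 from 74651913 to 74652261, in an intron and centred 1117 bp downstream of an internal start. It was singled out for its position in a network gene, with its values in view. It held 10.5 and 14.3 in serum, on only 6 and 15 reads, and 43.1 and 18.8 in 2i. The single high value, from 77 reads, was in 2i replicate 1. The means were 12.4 ± 2.72 in serum and 30.9 ± 17.2 in 2i (SD over n = 2 each). The log2 fold change was -1.16 (standard error 0.54, limma unadjusted p = 0.0563, adjusted p = 0.292), just short of a call. It was -0.58 without 2i replicate 1 and -0.68 after cyclic loess normalization, and it met the call after rescaling to the same total (-1.24), without serum replicate 2 (-1.37), without 2i replicate 2 (-1.74) and with replicate number as a block (-1.16, limma unadjusted p = 0.0411). Adjusted p-values under the 10 alternatives ran from 0.215 to 0.845. An E2F core, shown in capitals on the plus strand, lay 1029 bp downstream of the internal start.

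Mnt gene body, chr11:74651985-74652013: cgtgggaggggTTCCCGCactcccgcagg

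**Figure D3:**
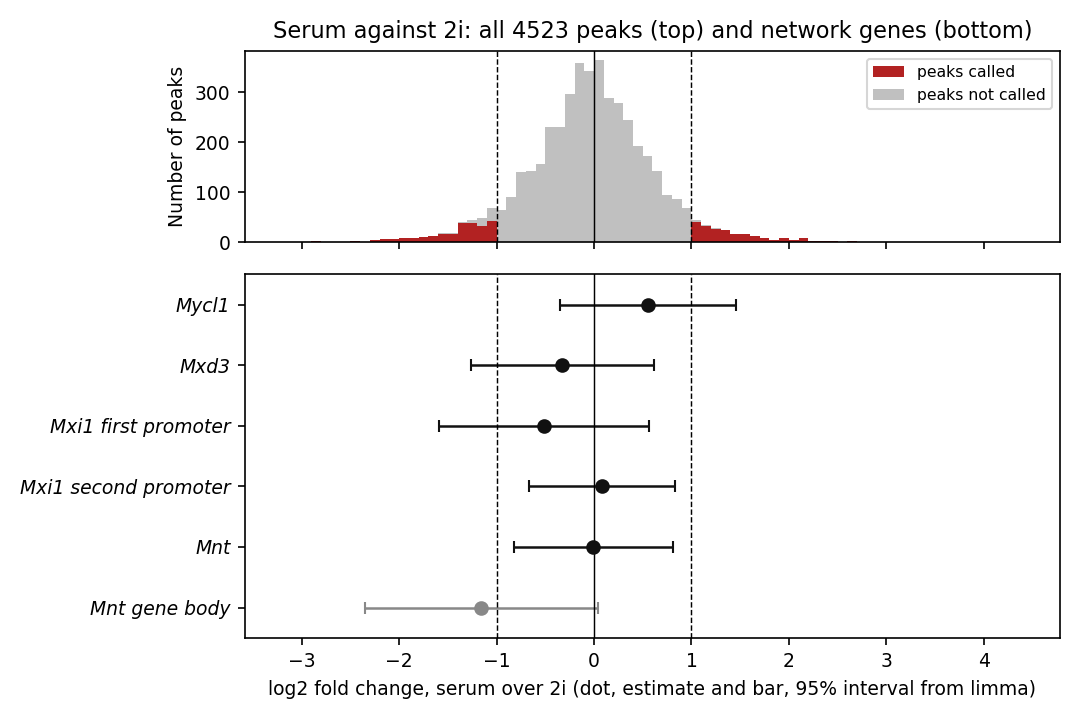
Log2 fold change of E2F1 signal, serum over 2i. The upper panel counts all 4523 peaks by fold change, with called peaks in red, and the lower panel gives the network peaks with 95% intervals from limma, in grey the peak in the Mnt gene body, and shows every interval crossing 0.

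Mlx (ENSMUSG00000017801.9, chromosome 11) and Mga (ENSMUSG00000033943.9, chromosome 2) had no peak at their 5 and 12 annotated starts, and the nearest peaks were 136359 bp away at Ezh1 and 97260 bp away at Tyro3. At Mlx an E2F octamer lay 947 bp upstream of the first start, in the windows of 4 of its 5 starts, and is given on the plus strand. No octamer was found at the starts of Mga.

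Mlx, chr11:100947630-100947659: gattttctatgGCGCCAAActggcccttga

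Per kb of peak, the signal averaged over the 4 samples was highest at the second Mxi1 promoter, at 124 normalized counts per kb. Mnt followed with 99.7, Mxd3 with 94.2, Mycl1 with 76.8 and the first Mxi1 promoter with 66.7. The median over all peaks was 126, and the 5 peaks ranked from 2299 to 4075 of 4523. The sample ranges of neighbours in this order overlapped, so their order is not resolved. The samples of the second Mxi1 promoter, from 111 to 144 per kb, lay above those of Mycl1, from 48.6 to 93.0, and of the first Mxi1 promoter, from 51.8 to 85.3.

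Among the peaks whose pattern over the 4 samples was nearest to that of the second Mxi1 promoter were those at Ube2m and Usp42, with distances of 0.0203 and 0.0593 between log2 values centred on their own mean. The median distance of all peaks was 0.71 and 25.7% of them lay within 0.5, so 4 samples set few peaks apart by pattern.

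Other genes of the network and its surroundings were described with the same window. Of the remaining network members, Mxd1 had a peak and Mlxip, Mlxipl and Mycs had none. The Mxd1 peak (chromosome 6, 86618776 to 86619421) held 78.4 and 90.6 in serum and 67.7 and 64.7 in 2i. Serum lay above 2i in both replicates, with a log2 fold change of 0.34 (standard error 0.29, limma adjusted p = 0.578).

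Of 11 genes for partners of MGA and MAX in PRC1.6, 7 had a peak, beside 19.0% of protein-coding genes. Of these 7, 0 were called by limma and 0 had an unadjusted p under 0.05, beside 10.3% and 17.8% of all peaks. Their median log2 fold change was 0.079 and ran from -0.28 at Hdac2, a histone deacetylase, to 0.45 at Pcgf6, the Polycomb ring-finger protein that defines the complex. E2f6, L3mbtl2, Cbx3 and Hdac1 had no peak. The strongest per kb was at Rybp, which binds the RING1 proteins, with 692 and 923 normalized counts in serum and 725 and 789 in 2i (log2 fold change 0.079, standard error 0.31, limma adjusted p = 0.921). At 636 per kb it lay above the network peaks, which ranged from 66.7 to 124.

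Of 20 genes for MYC cofactors and regulators of MYC stability, 6 had a peak, 0 were called by limma, and 0 had an unadjusted p under 0.05, beside the same 10.3% and 17.8% of all peaks, so that 0 of 6 is near the background. They were Ep400, Zbtb17, Fbxw7, Usp28, Pim1 and Mycbp, with log2 fold changes from -0.17 to 0.033 and a median of -0.053. The strongest per kb was at Pim1, a kinase gene, with 218 and 237 in serum and 231 and 285 in 2i (log2 fold change -0.17, standard error 0.25, limma adjusted p = 0.773). At Fbxw7, whose product directs MYC to degradation, it was 22.6 and 20.0 in serum and 20.7 and 20.9 in 2i, and the sequence held an E2F octamer.

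Of 20 textbook MYC target genes, 6 had a peak, 1 of them was called, and 3 had an unadjusted p under 0.05, beside 10.3% called and 17.8% under 0.05 over all peaks. The median log2 fold change was 0.59, beside -0.031 over all peaks, with 5 above 0 and 1 below. This list was chosen with earlier results of these data known, and its median was not computed under the other settings. The called peak, at the nucleolar protein gene Nop56 (chromosome 2, 130100017 to 130100430, which also covers the start of Snord110), held 67.9 and 67.7 in serum and 30.8 and 21.9 in 2i. Both serum samples lay above both 2i samples, and the log2 fold change was 1.35 (standard error 0.37, limma unadjusted p = 0.00375, adjusted p = 0.102). It was called under each of the 10 alternatives, with adjusted p-values from 0.0268 to 0.302.
The strongest of the list per kb was at Odc1, the first enzyme of polyamine synthesis, with 659 and 679 in serum and 321 and 424 in 2i (log2 fold change 0.86, standard error 0.28, limma unadjusted p = 0.00990, adjusted p = 0.147). It did not pass the fold change set for a call. Srm, which acts after it in the same pathway, had a log2 fold change of 0.69 (limma unadjusted p = 0.0320, adjusted p = 0.233). Fbl, a nucleolar methyltransferase gene, was the member below 0, at -0.66 (limma adjusted p = 0.488). Whether the MYC targets differed from the network genes in their change was not tested.

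**Figure D4:**
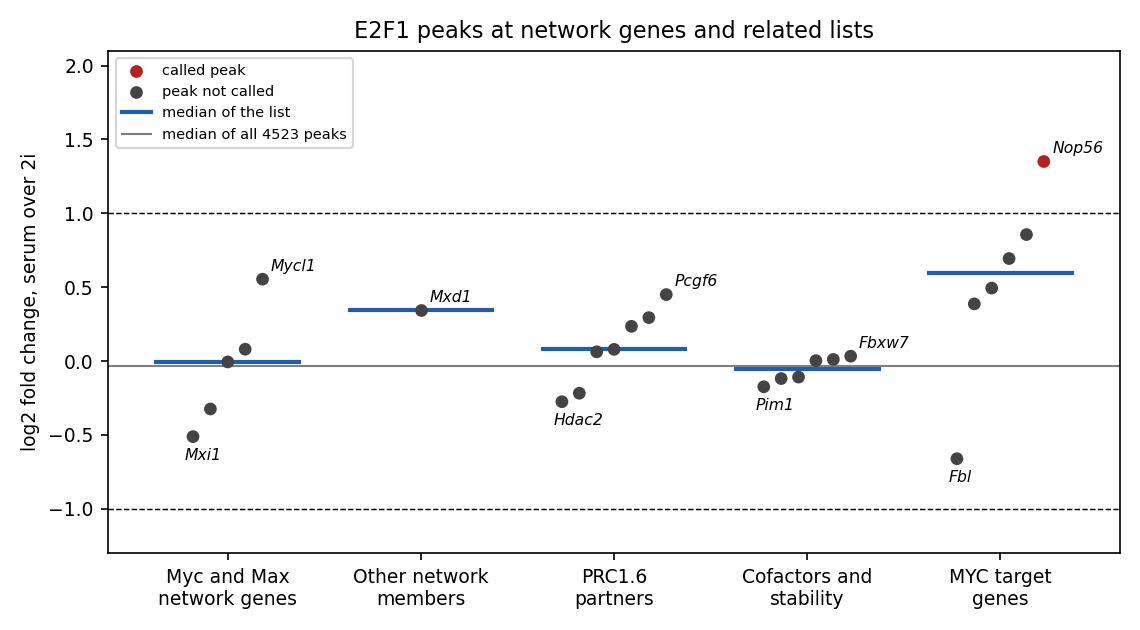
Log2 fold change of each E2F1 peak, serum over 2i, at the network genes and at the related lists. Dots are peaks, in red where called, the blue lines are list medians and the grey line the median of all 4523 peaks, with the Nop56 peak at 1.35 as the called dot.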

How the data were processed

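E2F1 ChIP-seq was analysed in 2 serum and 2 2i samples. Per the labels and methods, the authors aligned reads to mm9 with BWA, removed duplicates and blacklisted regions, called macs2 peaks in each sample, intersected replicates, merged both conditions and counted reads over each merged peak with bedtools. The deposited signal per peak is this read count divided by a size factor per sample, and the authors called differential peaks with DESeq2. Within a tolerance of 0.02, 99.95% of the values were whole multiples of the value of 1 read, from which the reads behind them were taken. Peak coordinates are those of the deposited table, which does not state if starts are 0-based.

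The main test was limma 3.58.1 (R 4.3.3) with a variance trend and no block, tried on simulated data. Alternatives were other pseudocounts, a minimum signal, 3 rescalings, a replicate block, other windows and leaving out each sample. Annotation and figures used Python 3.11.15, pysam 0.24.0 and matplotlib 3.10.9. Members and lists were chosen with earlier results of these data known. The text names every network peak, the peaks nearest in pattern to the strongest member, and in each related list the called peaks and the strongest per kb. The members with the lowest and highest fold change, Srm and Fbxw7 were named in addition, with their values in view. A peak that the pattern rule names is not reported here.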

Additional observations from a re-analysis of the deposited data

How the results depend on the processing

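The count of network peaks called was 0 under each of the 11 alternatives, and the count of 5 peaks at 4 genes was unchanged with each of 3 other definitions of the window. With a minimum mean normalized count of 50, 188 of 2731 peaks were called and only the second Mxi1 promoter was left to test among the network peaks. Leaving out serum replicate 2 gave 674 calls over all peaks, and the other samples 378 to 422. The direction turned after cyclic loess normalization at the first Mxi1 promoter (0.018) and at Mnt (0.0033), and after rescaling to the same total at the second Mxi1 promoter (-0.0086). The cause was not tested. With each sample left out in turn, the lone sample of its group being assumed to vary like the other group, the log2 fold change ran from -0.703 to 0.055 at Mxd3, from -0.108 to 0.268 at the second Mxi1 promoter and from -0.264 to 0.252 at Mnt, each crossing 0. With the replicate block, 504 peaks were called, and 271 with the adjusted p against 66 without the block, and no network peak among them. Same-numbered samples deviated together with a correlation of only 0.048 across peaks, so the numbers were not taken as a pairing. The planned edgeR and DESeq2 tests on recovered reads were not run, because the inferred reads did not pass a unit check that takes the smallest value of a sample as 1 read. Among the 5 network peaks, depth limits the weakest most, with 8 reads at the first Mxi1 promoter in serum replicate 1. The p-values with 2 replicates measure the spread of these samples only.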
